A study of Mus musculus with 15 samples.

Results

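The sustained LPS-opened regions of Ikaros knockout macrophages are stretches of chromatin that were hotspots of DNase I cutting after both 3 h and 8 h of lipopolysaccharide (LPS) and not before LPS. They were found from the 6 hotspot lists of Ikzf KO bone marrow derived macrophages. Only the 111553 densest hotspots of each list were used, the length of the shortest. On chromosomes 1 to 19, hotspots overlapping by 1 bp or more were joined across lists into KO regions, and the regions kept were those that all 4 lists with LPS held and that the pair of lists from resting cells lacked. Of 219126 KO regions, 5039 met this rule (2.3%). Presence in the KO lists and KO tag densities therefore chose the regions and are given below as a description, whereas the lists of wild-type and littermate macrophages played no part in the choice.

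All macrophages were derived from bone marrow of C57BL/6J mice and received 10 ng/ml LPS for 0, 3 or 8 h. The genotypes were Ikzf KO (2 libraries per time), littermate control (1 library per time) and wild type (WT, 2 libraries per time), 15 libraries in all. The titles give 80 U of DNase for KO, littermate and WT replicate 1 libraries and 100 U for WT replicate 2. The labels do not say how the allele was made, whether macrophages kept any Ikaros protein, or whether replicates are separate animals. The p-values therefore reflect how far libraries differed, which may be technical. WT and littermate libraries are together called controls, and a series is the set of 3 libraries, one per time, with the same genotype and number.

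LPS, a cell wall component of Gram-negative bacteria, is sensed by Toll-like receptor 4, which leads to the activation of NF-kB and interferon regulatory factors. In macrophages these factors, together with lineage factors such as PU.1, open promoters and enhancers, some of which were closed in the resting cell and stay open after the first hours. DNase I cuts such open chromatin most readily. Ikaros, encoded by Ikzf1, is a zinc finger DNA-binding protein of blood cells that recruits chromatin remodelling and histone deacetylase complexes. Regions are named here by position in the mouse build mm9, since the hotspot lists carry no gene names and no mm9 annotation was used here. The targeted locus and macrophage marker genes were not analysed here for the same reason.

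The lists differ in ways that touch every comparison with controls. They held 111553 to 132279 hotspots in KO, 52400 to 114427 in littermates and 15659 to 51834 in WT. The lowest Z-score was 3.40 to 3.66 in KO, 3.65 to 4.54 in littermates and 7.98 to 10.6 in WT, so WT lists stopped at stronger hotspots. The names of the KO and littermate lists carry a tag, FDR1, that those of the WT lists lack. Within a list, densities come in whole steps of one size. If all libraries were scaled to one total, which the sources do not state, these steps give a relative depth of 0.741 to 1 in KO, 0.525 to 0.712 in littermates and 0.596 to 0.947 in WT. Genotype and depth cannot be told apart between KO and littermates.

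In KO the sustained regions were of middling strength. Their median highest tag density (MaxD, in the units of the deposited lists) was 4.76 and 4.59 in the 3 h libraries and 5.58 and 5.46 in the 8 h libraries. KO regions present in all 6 lists had medians of 9.51 and 8.90 at 3 h and 10.9 and 10.9 at 8 h. KO regions open at 8 h only (3487 regions) had medians of 3.35 and 3.32 at 8 h, and those open at 3 h only (1469 regions) had 3.36 and 3.16 at 3 h. The sustained regions thus lay between the always open and the single-time classes in each of the 4 libraries. Regions that must pass the density cut in more lists tend to be denser by construction, which is part of this order. Their strongest hotspots reached 62.2 and 67.4 at 8 h. Over the 5039 regions, densities of the replicates were correlated with a Spearman coefficient of 0.814 at 3 h and 0.872 at 8 h, a description across regions of the same libraries that share the rule.

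Strength at 8 h relative to 3 h varied among the sustained regions. MaxD was higher at 8 h in both KO replicates in 2425 regions (48.1%) and lower in both in 1113 (22.1%). Over the regions in all 6 KO lists these shares were 56.8% and 13.6%. Libraries were paired here by number, although neither the labels nor the KO densities showed such a pairing. The median log2 ratio of 8 h to 3 h was 0.18 in replicate 1 and 0.23 in replicate 2. Over the regions in all 6 KO lists it was 0.20 and 0.27. The medians were thus similar, while a lower density at 8 h in both replicates was more frequent among sustained regions. The part of their lower strength in this was not tested. The region of highest ratio, chr2:59603450-59604537, had a MaxD of 1.96 and 2.87 at 3 h, and its 8 h values were 10.3 and 12.3. The region with the lowest, chr12:112839125-112839919, had 7.56 and 7.47 at 3 h, and its 8 h values were 2.23 and 2.37. The first gained density after 3 h in both replicates and the second had lost most of its density by 8 h, although the rule calls both sustained.

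The sustained regions were wider than regions open at one time only, and more of them lay near a region of all 6 lists. Their median width was 903 bp, with quartiles at 749.5 and 1094 bp, against 603 bp for 8 h only, 563 bp for 3 h only and 1258 bp for regions in all 6 lists. A region joined over more lists tends to be wider by construction, which is part of this order. The hotspots within single KO 8 h lists kept the order, with medians of 695 and 743 bp in sustained regions, 469 and 505 bp in 8 h only regions and 987 and 1019 bp in regions of all 6 lists. These hotspots passed the same rule, so their widths are a description and not independent of it. A region present in all 6 lists lay within 10 kb of 70.8% of sustained regions, 58.9% of 8 h only and 59.1% of 3 h only regions. The median distance from sustained regions was 4.55 kb. The share over all KO regions was not computed, and the part of width in these shares was not tested. Sustained regions made up 18.8 per 1000 KO regions on chromosome 14 and 28.8 per 1000 on chromosome 19, the lowest and highest of the 19 chromosomes.

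Some sustained regions lay in groups. Another sustained region was within 10 kb of 983 of them (19.5%), against 9.23% of 8 h only and 11.4% of 3 h only regions for their own kind, which are fewer. The densest group within 100 kb held 9 sustained regions at chr12:8364172-8438108, among 15 KO regions there of which 2 were in all 6 lists. Groups of 7 lay at chr2:30748920-30788083 and at chr3:107575435-107656173. In the littermate 8 h list, 3 of the 9, 3 of the 7 and 4 of the 7 regions were present. The WT 8 h lists held 1 region of each group.

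The rule turns on the limits of the lists. The 0 h lists, where a region had to be absent, came from the KO libraries of lowest relative depth. The part of this in the choice was not tested. KO lists were cut at 6 and 5 density steps at 3 h and at 6 and 7 steps at 8 h. At 0 h the list of replicate 1 was whole and 1273 hotspots of replicate 2 were removed, so a sustained region was one with no deposited hotspot at rest, apart from 3 regions that replicate 2 listed below the cut. A density exactly at the cut in at least 1 LPS list was found in 73 regions, and 261 lay within 1 step of it, whereas 1939 were more than 10 steps above it in all 4 LPS lists. Just inside was chr4:48266946-48267776, with 4.76 and 3.45 at 3 h and 1.67 and 3.56 at 8 h. Just outside, 4139 regions were in 3 of the 4 LPS lists and in no 0 h list, and 4650 were in all 4 LPS lists and in 1 of the 2 at 0 h. The strongest region missed by 1 LPS list, chr2:102636295-102637576, had a MaxD of 10.3 in replicate 1 at 3 h and of 19.5 and 20.6 at 8 h, and was not in the 3 h list of replicate 2.

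The deposited control lists, which did not enter the rule, held few sustained regions at rest and many after 8 h of LPS. The littermate lists held 187 (3.71%) at 0 h, 640 (12.7%) at 3 h and 3051 (60.5%) at 8 h. WT replicate 1 held 3 (0.0595%), 50 (0.992%) and 1146 (22.7%) at these times, and WT replicate 2 held 1 (0.0198%), 107 (2.12%) and 1209 (24.0%). Sustained regions were more frequent in the later list in each of the 3 series and at each step of time. Other KO regions stood at 17.7%, 14.8% and 34.2% in the littermate lists at 0, 3 and 8 h. In WT they stood at 6.997%, 6.37% and 18.6% in replicate 1 and at 8.58%, 7.90% and 20.05% in replicate 2. Sustained regions were thus below them at rest and at 3 h in all 3 series. At 8 h they were above them in all 3 series, by more in the littermate than in WT. Deposited lists were shortest at 3 h and longest at 8 h in each control series, and their length is part of these shares.

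**Figure D1:**
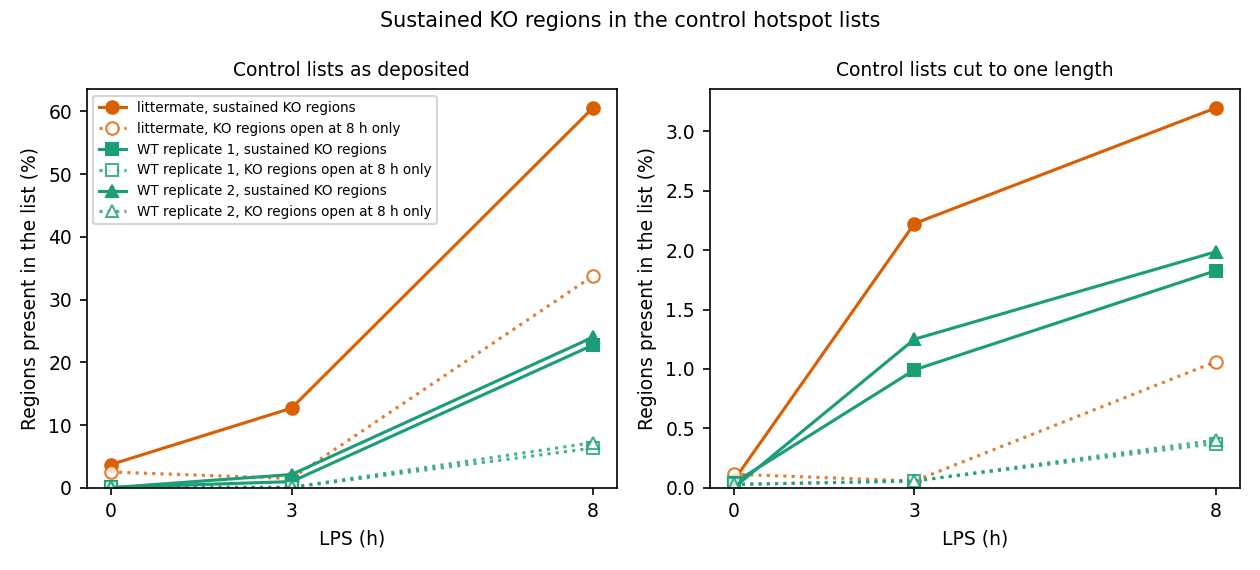
Percentage of the 5039 sustained KO regions (solid lines) and of the 3487 KO regions open at 8 h only (dotted lines) present in each control list, against hours of LPS, in lists as deposited and in lists cut to 15659 hotspots. Each point is 1 library. The littermate series ends at 60.5% as deposited, and in lists of one length all 3 series are at 0.992% or above at 3 h for sustained regions and at 0.0574% for regions open at 8 h only.

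Control lists were then cut to one length, the 15659 hotspots of highest density. Sustained regions were present at 0.0331% ± 0.0303 at 0 h, 1.49% ± 0.649 at 3 h and 2.34% ± 0.749 at 8 h (SD, n = 3 libraries each). The share rose by 2.30 percentage points at 8 h over 0 h, in 3 of 3 series (two-sided exact test permuting the times within each genotype, p = 0.0037, the smallest that 540 arrangements allow, and 0.011 after Benjamini-Hochberg adjustment over 6 tests). The difference of 1.46 points between 3 h and 0 h, positive in 3 of 3 series, did not pass the exact permutation test (p = 0.126, adjusted p = 0.151), and neither did that of 0.85 points between 8 h and 3 h (p = 0.419, adjusted p = 0.419). These arrangements move the labels of all 3 times, so the spread for one pair of times includes the third.

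Without any one control series, p for 8 h over 0 h was the smallest its arrangements allowed but missed the threshold after adjustment. The difference was 4.72 points without WT replicate 1, whose 3 h list is the shortest and sets the length, 2.46 points without WT replicate 2 and 1.89 points without the littermate. Defined without KO replicate 2, the regions rose by 1.51 points, and without KO replicate 1 by 1.64 points, both past the threshold. With either WT series left out, 36 arrangements remained and the exact permutation p was 0.056, the smallest then possible, so the threshold could not be passed. Without the littermate, 90 arrangements remained. The exact permutation p was then 0.022, also the smallest possible, and adjusted p was 0.067. The controls also changed in strength between these times: the Z-score at rank 15659 ran between 8.48 and 11.4 before LPS and after 3 h, and between 25.8 and 27.3 after 8 h. The part of this in the result was not tested.

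The rise exceeded that of the other KO regions in size under every setting tried, but passed the threshold under only some. Sustained regions minus all other KO regions stood at -6.54 points at 0 h, -4.94 at 3 h and -4.58 at 8 h in lists of one length, below them at each time. As deposited the 8 h value was 11.5 points, so whether sustained regions lay below or above other KO regions at 8 h turned with list length. This gap narrowed by 1.96 points at 8 h over 0 h in 3 of 3 series (exact permutation p = 0.0037, adjusted p = 0.011). Ranking hotspots by Z-score instead of density gave 1.56 points with an adjusted p of 0.052 in the exact permutation test, and asking for 50% of a region to be covered gave 1.39 points with 0.350. Without a control series the gap narrowed by 1.61 to 4.20 points, the highest without WT replicate 1. Adjusted exact permutation p was then 0.067 to 0.167, each from the smallest p that the arrangements allowed. With a single KO series defining the regions the gap narrowed by 1.14 points without KO replicate 1 and by 1.01 points without KO replicate 2. Each had an adjusted exact permutation p of 0.089. The narrowing at 3 h, 1.60 points, had an exact permutation p of 0.044 and an adjusted p of 0.067, and 0.011 with either KO series left out.

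Sustained regions were also set against the 8 h only regions in controls at 3 h, a difference that stayed short of the threshold. At 3 h the control lists of one length held 1.43 percentage points more of the sustained than of the 8 h only regions, which were at 0.0574% in each of the 3 libraries, and at 0 h the difference was -0.02 points. The change of 1.46 points had an exact permutation p of 0.041 and an adjusted p of 0.067 over 6 tests, in 3 of 3 series. On the log odds scale the adjusted exact permutation p was 0.0074, and it was 0.844 in lists as deposited, which differ in length. In lists of one length the 8 h only regions numbered 2 per library at 3 h and 1, 1 and 4 at 0 h. The log odds therefore rest on few counts. The 8 h only regions were also weaker in KO, with 8 h medians of 3.35 and 3.32 against 5.58 and 5.46 for sustained regions. At 8 h these control lists held 0.612% of them, against 2.34% of sustained regions, and the part of strength was not tested.

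In the littermate series most of the sustained regions that opened were listed at 8 h alone. Of the 5039, 548 (10.9%, Wilson 95% interval 10.0 to 11.8) were in the littermate lists at 3 h and 8 h and not at 0 h, the pattern of KO, against 2.93% of all KO regions. Another 2355 (46.7%, 45.4 to 48.1) were in the 8 h list and not at 0 h or 3 h, against 15.9% of all KO regions, and 34 (0.675%) were in the 3 h list alone, against 0.792%. The littermate 3 h list was the shortest of that series and its relative depth the lowest of all 15 libraries. No littermate list held 1915 of the sustained regions (38.0%, 36.7 to 39.4), against 62.9% of all KO regions. The intervals cover counting error alone, as regions near each other are not independent.

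Over all 9 deposited control lists, 1910 sustained regions (37.9%) were in none, against 62.8% of all KO regions, and 0 were in all 9, against 4.62%. Found in every control library at 8 h but never at rest were 870 (17.3%, Wilson 95% interval 16.2 to 18.3), against 4.3% of all KO regions, and 25 of them were also in all 3 control lists at 3 h (0.496%, against 0.125%). The WT lists alone held 937 (18.6%) in both replicates at 8 h and not at rest, against 8.53% of all KO regions, and 35 of these in both replicates at 3 h as well (0.695%, against 0.457%).

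In control lists of one length the order turned: 4782 sustained regions (94.9%) were in none, against 88.9% of all KO regions, and 0 were in all 9, against 3.31%. Found in every control library at 8 h but never at rest were 54 (1.07%, against 0.595%), and 17 of these were in every control library at 3 h too (0.337%, against 0.192%). The share of 1.07% became 3.27% without WT replicate 1 and 0.691% with the regions defined without KO replicate 2. Sustained regions in no deposited control list were weaker in KO, with a median 8 h density of 4.96, than the 939 in all 3 deposited control lists at 8 h, with 7.81, and were narrower, with medians of 848 and 1023 bp. As deposited, 188 sustained regions (3.73%) were in at least 1 control list at rest, against 17.8% of all KO regions, and 187 of these came from the littermate list, the longest.

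Presence in controls followed strength in KO. Sustained regions were divided into 5 strength classes of 1007 or 1008 by their mean density rank over the 4 KO LPS lists. From the strongest class to the weakest, the littermate 8 h list held 71.8%, 67.0%, 60.7%, 55.6% and 47.7%. The WT 8 h lists held 41.3% and 41.8% of the strongest class and 10.8% and 11.7% of the weakest. The littermate 3 h list held 25.9% of the strongest and 5.75% of the weakest, whereas the littermate 0 h list held 3.17% and 3.87% and showed no such slope. Of the strongest class, 27.3% were in no control list. Median width also fell, from 1078.5 bp in the strongest class to 806 bp in the weakest, and presence needed only 1 bp of overlap. The part of width in these shares was not tested.

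**Figure D2:**
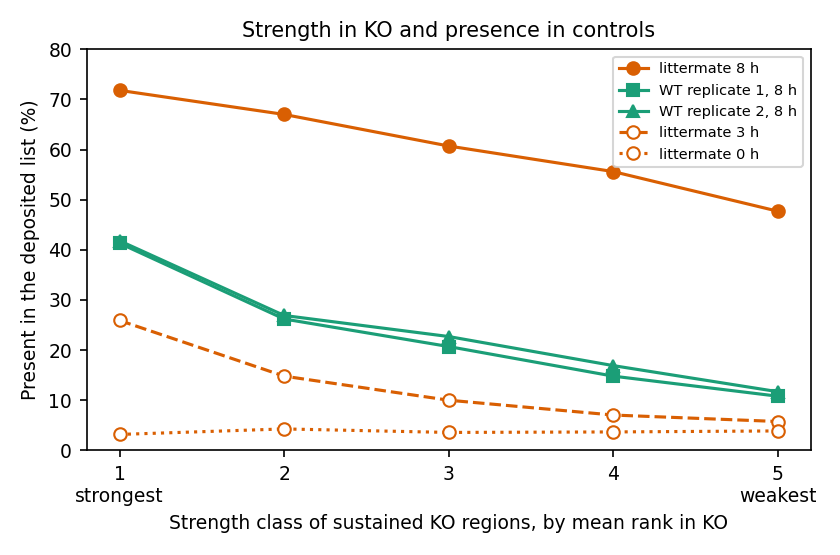
Percentage of sustained KO regions present in deposited control lists, for 5 strength classes of 1007 or 1008 regions ordered by mean density rank in KO (strongest left). Lines are single libraries; at 8 h all 3 control libraries decline from the strongest to the weakest class, while the littermate at 0 h stays between 3.17% and 4.27%.

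The KO time profile also divided the regions in controls. KO libraries were again paired by number. Regions stronger at 8 h than at 3 h in both KO replicates were in the WT 8 h lists at 28.2% and 29.6%, against 17.2% and 18.5% of those weaker at 8 h. In the littermate 8 h list the shares were 64.2% and 57.6%. At 3 h the order was the other way round in all 3 control lists, with 11.8% against 15.4% in the littermate, 0.948% against 1.71% in WT replicate 1 and 1.81% against 3.14% in WT replicate 2. The regions stronger at 8 h also had the better median rank in KO, 53335 against 60235, a mean over the KO lists of both times with LPS. The control shares at 8 h followed this rank, whereas those at 3 h ran against it. KO strength at each single time was not compared between these groups. These shares are a description, with no test.

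To set KO and controls on the same footing, regions were defined on 1 KO series and looked up in the KO series left out and in the controls, with lists of equal length within each time. KO replicate 1 alone gave 11576 sustained regions and KO replicate 2 alone gave 11789. With lists as long as the littermate ones, or 111553 hotspots at 8 h, the left-out KO 8 h library held 83.3% and 80.4% of these regions and the littermate 52.5% and 53.5%. At 3 h, with 52400 hotspots, the left-out KO library held 25.7% and 27.4% and the littermate 9.39% and 9.99%. At 0 h, with 64262 hotspots, the left-out KO library held 10.2% and 11.7% and the littermate 4.68% and 4.79%. The left-out KO library was higher in all 6 comparisons, also at rest. It was higher for other regions of the defining series too, which stood at 53.1% and 51.4% in the left-out KO library and 45.1% and 44.7% in the littermate at 8 h. At 3 h other regions stood at 31.2% and 31.6% in the left-out KO library and 20.5% and 20.4% in the littermate. At 0 h they stood at 38.8% and 38.7% in the left-out KO library and 24.5% and 24.4% in the littermate. At these lengths sustained regions were therefore below other regions at 0 h and 3 h and above them at 8 h in both genotypes. The 8 h lists were also the longest, and list length is part of this order. The excess of KO was not limited to sustained regions. In percentage points it was larger for them at 3 h and 8 h and larger for other regions at 0 h. With 1 KO library against 1 littermate library no test can be made, and the relative depth given by the density steps was higher in KO. Regions in all 3 lists of the defining series were at 98.1% and 97.5% in the left-out KO 8 h library and at 85.8% and 86.2% in the littermate.

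Among the strongest hotspots alone, the excess over the littermate was small or absent. With 48084 hotspots at 8 h, the left-out KO library held 23.2% and 23.3% of the regions, the littermate 22.7% and 23.4% and the WT libraries 16.5% to 17.2%. With 15659 hotspots at 3 h, the left-out KO library held 0.959% and 1.52%, the littermate 1.48% and 1.70% and the WT libraries 0.674% to 0.916%. Other regions stood at 29.6% and 29.1% in the left-out KO library, 27.9% and 27.7% in the littermate and 26.0% to 26.7% in WT at 8 h, and at 9.02% to 10.4% over all these libraries at 3 h. Sustained regions were below other regions in each library at these lengths. The gap between left-out KO and littermate thus depended on how far down the lists were read. Between 1 KO and 3 control libraries an exact two-sided permutation test cannot go below 0.25, so no test was made.

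**Figure D3:**
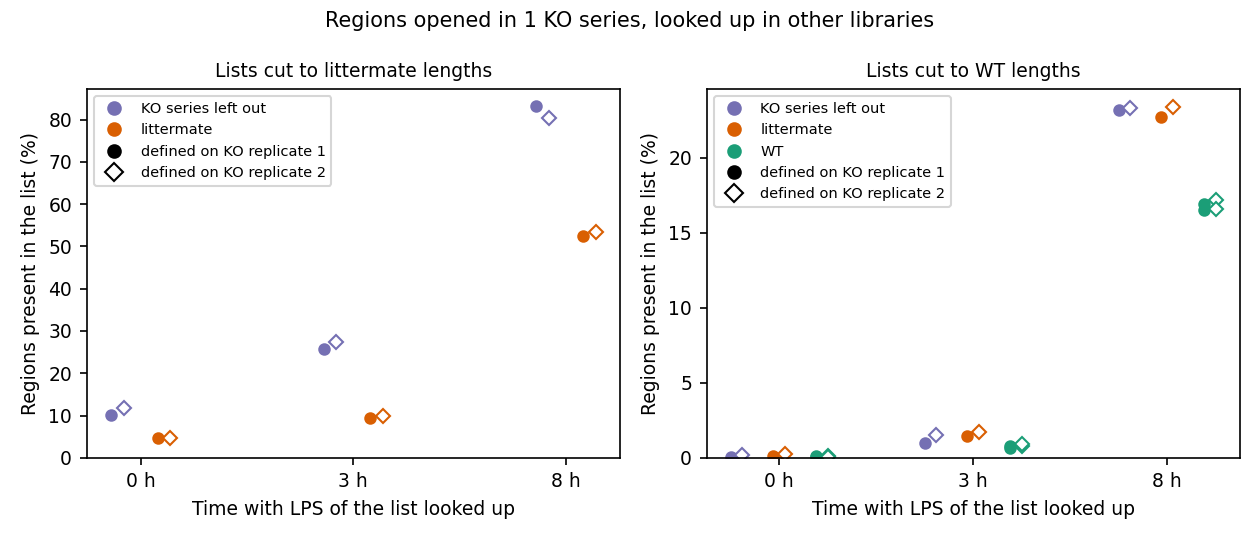
Percentage of the regions opened in 1 KO series (11576 for replicate 1, filled circles, 11789 for replicate 2, open diamonds) that were present in the other KO series, the littermate and, on the right, WT libraries, by time with LPS. Lists are cut to littermate lengths on the left, where KO is above the littermate at each time, and to WT lengths on the right, where at 8 h KO lies at 23.2% and 23.3% and the littermate at 22.7% and 23.4%.

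Regions found in both genotypes did not have lower density throughout in controls. Of the 3051 sustained regions in the littermate 8 h list, MaxD was above both KO 8 h libraries in 1286 (42.2%) and below both in 1263 (41.4%). For the 51365 regions of all 6 KO lists that were also in the littermate 8 h list the shares were 25.2% above and 61.9% below. Densities are compared here as deposited, and their scaling between libraries is not stated. A littermate region is counted only if it passed the threshold of that list, which removes low littermate values in both classes, but not equally. The littermate 8 h list held 60.5% of sustained regions and 89.0% of regions in all 6 KO lists.

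The 10 strongest sustained regions by mean rank were led by a region that no control library listed. The strong regions named here and below were chosen by rank in KO with LPS, which favours KO densities above those of controls. The region chr1:135188037-135189564 had a MaxD of 23.2 and 28.1 at 3 h and of 62.2 and 67.4 at 8 h in KO, and was in none of the 9 control lists. It ranked 1806 and 1463 in the KO 8 h lists and was also first when hotspots were ranked by Z-score. Second was chr8:64039681-64042189, with 20.7 and 22.7 at 3 h and 58.04 and 62.4 at 8 h in KO. In controls it had 5.42 in the littermate at 3 h, and at 8 h it had 16.3 in the littermate and 13.0 and 11.8 in WT, so all control values lay below all KO values.

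The fourth, chr17:34998604-35000299, was listed in every control library with LPS and in none at rest. In KO its MaxD reached 17.1 and 19.5 by 3 h and 56.1 and 51.7 by 8 h. In the littermate it was 9.93 at 3 h and 43.6 at 8 h, in WT replicate 1 it was 6.01 and 42.5, and in WT replicate 2 it was 9.13 and 35.8. KO values lay above control values at both times without overlap, in a region chosen for its rank in KO. It was stronger at 8 h in all 5 series.

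The other 7 of the 10 were chr7:148158962-148160303, chr4:144863422-144865203, chr5:66432103-66433447, chr5:106065577-106066687, chr14:62215512-62216756, chr11:69430088-69431047 and chr1:84295877-84297359. In KO their MaxD ran from 14.8 to 26.6 at 3 h and from 25.1 to 46.9 at 8 h. Of these 7, the chromosome 11 region was in no control list, and the other 6 were in all 3 control lists at 8 h with 7.02 to 40.1. None of the 10 was in a control list at 0 h. Of the 10, 2 were also among the 10 strongest by Z-score and 8 among the 50 strongest, and the last of them was at place 70.

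Neighbouring regions could differ in controls. The chromosome 7 region starting at 148158962 had 26.0 and 25.8 at 3 h and 38.8 and 40.1 at 8 h in KO. It was in 4 control lists, with 5.87 in the littermate at 3 h, and at 8 h with 16.3 in the littermate and 7.02 and 12.5 in WT. The sustained region next to it, chr7:148156921-148158428, had 16.5 and 17.8 at 3 h and 20.4 and 24.2 at 8 h in KO and was in no control list. The other strong regions in no control list were chr2:145623369-145624418, with 15.4 and 15.2 at 3 h and 25.1 and 28.5 at 8 h in KO, and chr2:102745355-102746400, with 20.4 and 22.7 at 3 h and 18.98 and 18.98 at 8 h in KO. Absence from a list means that no hotspot passed the authors' threshold in that library, and the lowest listed Z-score was highest in WT.

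Some regions opened in all control series were stronger in controls than in KO at 8 h. Regions of this pattern, here and below, were also picked by rank in KO. In KO, chr16:24765872-24767527 had a MaxD of 22.4 and 26.4 at 3 h and of 22.04 and 16.8 at 8 h. Controls had 13.5 in the littermate and 9.52 and 13.1 in WT at 3 h, and 59.6 in the littermate and 49.5 and 53.5 in WT at 8 h. KO was above all controls at 3 h and below all of them at 8 h. The widest sustained region of all, chr11:83336701-83344766 (8066 bp), had 21.8 and 20.7 at 3 h and 15.1 and 17.6 at 8 h in KO, against 12.6, 9.52 and 14.7 at 3 h and 30.6, 32.1 and 27.4 at 8 h in the littermate, WT replicate 1 and WT replicate 2. It too had KO above controls at 3 h and below them at 8 h.

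In another such region, chr7:133742205-133743303, MaxD reached 22.9 and 26.1 at 3 h and 15.6 and 18.0 at 8 h in KO, against 6.77, 6.76 and 14.3 at 3 h and 20.6, 16.4 and 19.1 at 8 h in the littermate, WT replicate 1 and WT replicate 2. KO lay above controls at 3 h, and the groups overlapped at 8 h. The region chr14:28153765-28155854 had 19.9 and 21.8 at 3 h and 25.4 and 26.8 at 8 h in KO, against 7.67, 7.26 and 9.13 at 3 h and 19.98, 17.1 and 18.4 at 8 h in the same controls. There KO was above controls at both times.

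**Figure D4:**
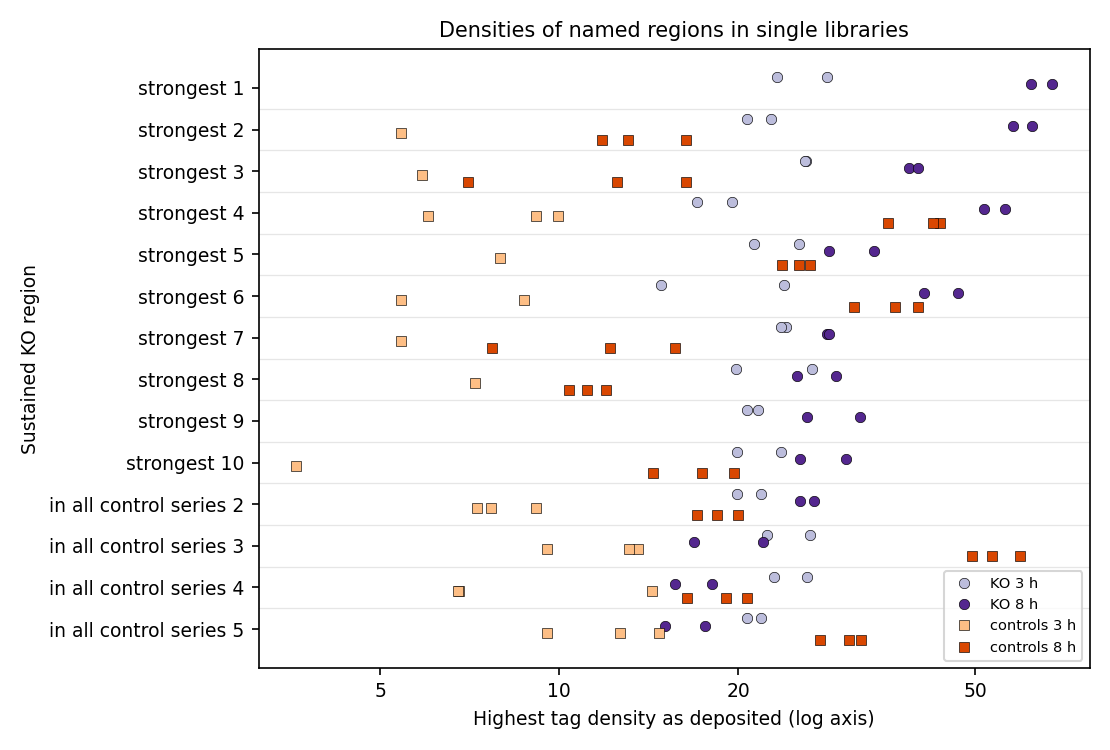
Highest tag density as deposited (log axis) of the 10 strongest sustained KO regions and of 4 further strong regions found in every control list at 3 h and 8 h and in none at 0 h, one row per region. Circles are single KO libraries and squares single control libraries; a missing square means no hotspot in that list. Rows 1 and 9 have no control point, and in 2 of the lowest 3 rows the control points at 8 h lie to the right of the KO points.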

How the data were processed

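DNase-seq hotspot lists of 15 libraries were used. Isolated nuclei received DNase I and short fragments were enriched on a sucrose gradient, per the labels' protocols. The submitters' processing notes name mm9 and CASAVA. Which aligner, hotspot caller and threshold were used is not given in the sources used here. Hotspots carry their highest (MaxD) and mean tag density, Z-score and p-value, per the file headers. The deposited density is a signal of unstated scaling, the deposited Z-score is a score, and the deposited p-value was not used further. The authors deposited one list per library. The lists hold no read counts, so depth is unknown.

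Lists were cut by MaxD (ties by mean density, then position) over all chromosomes and then limited to chromosomes 1 to 19. Presence of a region needed 1 bp of overlap with a hotspot of that list. Shares have Wilson 95% intervals. Tests were exact two-sided permutations of times within genotype with Benjamini-Hochberg adjustment over 6 tests at a threshold of 0.05. Deviations of WT replicates from their group mean correlated at 0.462 to 0.522 between times over 10206 regions, so WT numbers pair libraries, by the data and not by the labels; the DNase amount has the same split. In KO the values were -0.013 to 0.0463. Named regions are the 10 of lowest mean rank, the 5 strongest in each control pattern, extremes of the ratio of 8 h to 3 h, those nearest the cut and the densest groups. The members and the lists and tests were chosen with earlier results of these data known. The functions were tested on simulated lists with planted regions. Alternatives were ranking by Z-score, other list lengths, coverage, merging within 200 bp, chromosome X, left-out series, a replicate block and log odds. Python 3.11.15, pandas 2.3.3, numpy 2.4.6 and scipy 1.17.1 were used. Gene assignment, promoter sequences and motifs were not analysed here, since the annotation at hand is of build GRCm38.p6. Whether coordinates count from 0 or 1 is not stated, and they are given as deposited.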

Additional observations from a re-analysis of the deposited data

How the results depend on the processing

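The number of sustained regions was 4649 to 6700 under the other settings tried, apart from 2988 with KO lists of 55776 hotspots and 11576 to 11789 with 1 KO series left out. The share in no control list, 94.9% with lists of one length, was 86.6% with KO lists of 55776 hotspots, 90.8% with 50% of a region covered, 64.5% with control lists cut per time, 37.9% as deposited and 91.6% to 96.5% with a series left out. The share in every control list at 8 h and in none at 0 h, 1.07%, was 3.38%, 2.90%, 16.6% and 17.3% under the same 4 settings and 0.691% to 3.27% with a series left out. No setting gave more than 0.0335% in all control lists.

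The 8 h over 0 h rise was 1.51 to 4.72 points with a series left out. Without a control series it missed the threshold, with p the smallest possible there. The rise was 34.5 points with control lists as deposited and 25.2 points with lists cut per time. It was 6.04 points with KO lists of 55776 hotspots and 5.17 points with 50% covered. The narrowing of the gap to other KO regions at 8 h was 1.01 to 4.20 points with a series left out, 1.56 points with ranks by Z-score and 1.39 points with 50% covered, all short of the threshold. Without a control series p was again the smallest possible. The cause was not tested. At 3 h this gap narrowed by 1.09 to 3.15 points with a series left out, past the threshold only where a KO series was left out (1.09 and 1.26). On the log odds scale (0.5 added to each count) the contrast with 8 h only regions was 3.64 and passed. It rests on counts of 4 or fewer 8 h only regions per library at 0 h and 3 h. The differences between times kept their sign under the settings tried. The order of sustained and other KO regions did not: sustained regions were in no control list more often than all KO regions with lists of one length (94.9% against 88.9%) and less often as deposited (37.9% against 62.8%). With the replicate block, permuting times within each control series, the 8 h rise of 2.30 points had an exact permutation p of 0.0093, adjusted p of 0.028, and the block changed no call. At 15659 hotspots per list most sustained regions lie below the limit, and absence there does not show closed chromatin.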
